A study of Mus musculus with 6 samples.

Results

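The orosomucoids Orm1, Orm2 and Orm3 and lipocalin 2 (Lcn2) were followed in bulk liver RNA from mice with and without colorectal tumor cells. These 4 genes were taken by their symbols from the 20140 genes of the count table, and all 4 passed the filter on low counts, as did 16370 genes in all. Liver mRNA was sequenced on day 21 from 3 groups with 2 livers each, and 2 biological replicates per group are stated. The sham mice carry the label control, their library names say sham, and they were given PBS. The other groups are labelled intra-C and intra-S and were given CT26, a mouse colorectal carcinoma cell line. By the study's description of its models, intra-C corresponds to implantation into the cecum, a stage before visible liver metastases, and intra-S to injection into the spleen, from which cells reach the liver. The study treats its splenic model at day 21 as metastatic, so the sequenced tissue of intra-S may include tumor cells. The labels themselves do not spell these names out. For its tumor models the study names BALB/c as well as C57BL/6 mice, bought at 6 to 10 weeks of age, and its schemes of the cecal and splenic models name BALB/c. The labels of these livers give no age, strain or genotype. Polyadenylated RNA of all liver cells was sequenced, so that a change in the number of cells of a type and a change in RNA per cell cannot be told apart.

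Orosomucoids, also called alpha-1-acid glycoproteins, are heavily glycosylated plasma proteins of the lipocalin fold that hepatocytes secrete, and they bind drugs, lipids and steroids. Lcn2, also called neutrophil gelatinase-associated lipocalin, binds bacterial siderophores and so withholds iron from bacteria. It is stored in the secondary granules of neutrophils and is also made by hepatocytes in inflammation. In the acute phase response, interleukin-6 acts through STAT3, interleukin-1 through NF-kB and C/EBP factors, and glucocorticoids through their receptor to raise these transcripts in hepatocytes.

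On mouse GRCm38.p6 (mm10), the 3 orosomucoid genes lie side by side on the plus strand of chromosome 4 within 21322 bp, in the order Orm1 (chr4:63344556-63348163), Orm3 (chr4:63356069-63359506) and Orm2 (chr4:63362449-63365877). Lcn2 lies on the minus strand of chromosome 2 (chr2:32384637-32387739). All 4 genes moved in the same direction in these livers, by very different amounts, and the promoters of the 3 that matched the RefSeq promoter table are shown for that reason. The promoter of Orm1 was not analysed here. The windows are the 250 bases before the transcription start given in that table (GRCm38.p6), written 5′ to 3′ on the gene's own strand, with matches to the motifs searched in capitals. They are chr4:63362199-63362448 for Orm2, chr4:63355908-63356157 for Orm3 and chr2:32387740-32387989 for Lcn2. For Orm3 the start in that table lies inside the outer gene boundary given above, so that the end of its window overlaps the gene, and distances are counted from the table's start.
Orm2: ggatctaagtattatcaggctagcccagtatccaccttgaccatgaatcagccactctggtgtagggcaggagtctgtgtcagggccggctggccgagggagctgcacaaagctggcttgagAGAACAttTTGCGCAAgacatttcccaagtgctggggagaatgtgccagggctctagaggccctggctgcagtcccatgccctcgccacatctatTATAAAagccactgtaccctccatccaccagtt
Orm3: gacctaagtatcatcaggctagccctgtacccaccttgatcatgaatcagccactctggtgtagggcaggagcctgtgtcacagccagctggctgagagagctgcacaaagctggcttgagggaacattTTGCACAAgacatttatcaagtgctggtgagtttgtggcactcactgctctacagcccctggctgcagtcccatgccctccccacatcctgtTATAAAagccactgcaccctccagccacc
Lcn2: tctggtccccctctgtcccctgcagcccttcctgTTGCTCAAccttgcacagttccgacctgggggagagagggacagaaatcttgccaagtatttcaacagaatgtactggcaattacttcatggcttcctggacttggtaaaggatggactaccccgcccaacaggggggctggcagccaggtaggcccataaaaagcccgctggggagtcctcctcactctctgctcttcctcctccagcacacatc
The motifs were searched on both strands and may overlap one another. The palindrome TTGCGCAA, a form bound by C/EBP factors, was found in Orm2 from 120 to 113 bases before the start and in 54 of 32851 mouse promoter windows of the same length, or 0.164%. The looser form TTGCNNAA, which includes that palindrome, occurred in 9.56% of the windows. It was found as TTGCACAA in Orm3, 121 bases before the start, and as TTGCTCAA in Lcn2, 216 bases before the start. Counted from 1 at the 5′ end of the motif, Orm3 differs from Orm2 by G5A in the aligned window. AGAACA, a glucocorticoid receptor half-site, was found in Orm2, 128 bases before the start, and in 16.1% of the windows. TATAAA was found in Orm2 and Orm3 (12.4% of the windows). The letters TTCNNNGAA (STAT, 7.02% of the windows) and GGANTTTCC (NF-kB, 1.07%) were not found in these 3 windows. STAT and NF-kB were each searched in this 1 form only, so sites of other forms or outside the 250 bases would have been missed. Over their aligned length, the Orm2 and Orm3 windows were identical at 218 of 255 columns (85.5%).

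In the sham livers, Orm1 was by far the most abundant of the 4 transcripts. In the livers of both tumor groups all 4 were higher, Lcn2 and Orm2 by far more than Orm1 and Orm3, and Lcn2 came up to the level of Orm2. The level of each gene is given in CPM, its count relative to the library's total after TMM scaling, which compares a gene between livers. For comparisons between genes, TPM was used, which also divides by gene length. The tests are edgeR's quasi-likelihood tests in 1 fit over the 6 livers, with p-values adjusted by Benjamini-Hochberg over the 16370 genes, and a gene was called at an adjusted p under 0.05.

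Orm1, the main orosomucoid gene of the mouse liver, had 536 and 670 CPM in sham, 4657 and 5061 CPM in intra-C and 2942 and 6053 CPM in intra-S. Every liver of the tumor groups lay above both sham livers, and the lowest of them, intra-S liver 1, was 4.39-fold above the higher sham liver. The log2 fold change was 3.01 in intra-C against sham (standard error 0.39, edgeR adjusted p = 0.0139), which is 8.06-fold with a 95% interval from 4.20 to 15.5. In intra-S against sham it was 2.90 (standard error 0.39, edgeR adjusted p = 0.0124), or 7.46-fold with an interval from 3.90 to 14.3.

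Orm2, a paralog of Orm1 whose transcript is 91.0% identical to it, had 27.4 and 32.0 CPM in sham, 1867 and 2203 CPM in intra-C and 1263 and 2517 CPM in intra-S. The gap between the sham livers and the others was wider than for Orm1, the lowest intra-C liver being 58.4-fold and the lowest intra-S liver 39.5-fold above the higher sham liver. The log2 fold changes were 6.10 in intra-C (standard error 0.43, edgeR adjusted p = 0.00543) and 5.99 in intra-S (standard error 0.43, edgeR adjusted p = 0.00446), or 68.5-fold and 63.6-fold. The 95% interval of the fold ran from 33.3 to 141 in intra-C and from 31.0 to 130 in intra-S.

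Orm3, which lies between Orm1 and Orm2 and was the one least expressed in these livers after tumor cells were given, had 11.7 and 11.1 CPM in sham, 34.2 and 75.5 CPM in intra-C and 67.0 and 59.3 CPM in intra-S. The groups again did not overlap with sham, but the intra-C livers differed from each other by 2.21-fold. Its log2 fold change was 2.27 in intra-C (standard error 0.38, edgeR adjusted p = 0.0251) and 2.47 in intra-S (standard error 0.38, edgeR adjusted p = 0.0159). These are 4.82-fold and 5.55-fold, the lowest among the 4 genes.

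Lcn2 had 7.76 and 7.65 CPM in sham, and of the 4 genes it varied least between the sham livers. It had 1508 and 2820 CPM in intra-C and 1629 and 3401 CPM in intra-S. The intra-C liver with less Lcn2 stood 194-fold above the higher sham liver, and the intra-S liver with less Lcn2 stood 210-fold above it. The log2 fold change was 8.13 in intra-C (standard error 0.59, edgeR adjusted p = 0.00543) and 8.35 in intra-S (standard error 0.59, edgeR adjusted p = 0.00446). This is 281-fold with a 95% interval from 105 to 748 in intra-C, and 326-fold with an interval from 121 to 877 in intra-S.

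**Figure D1:**
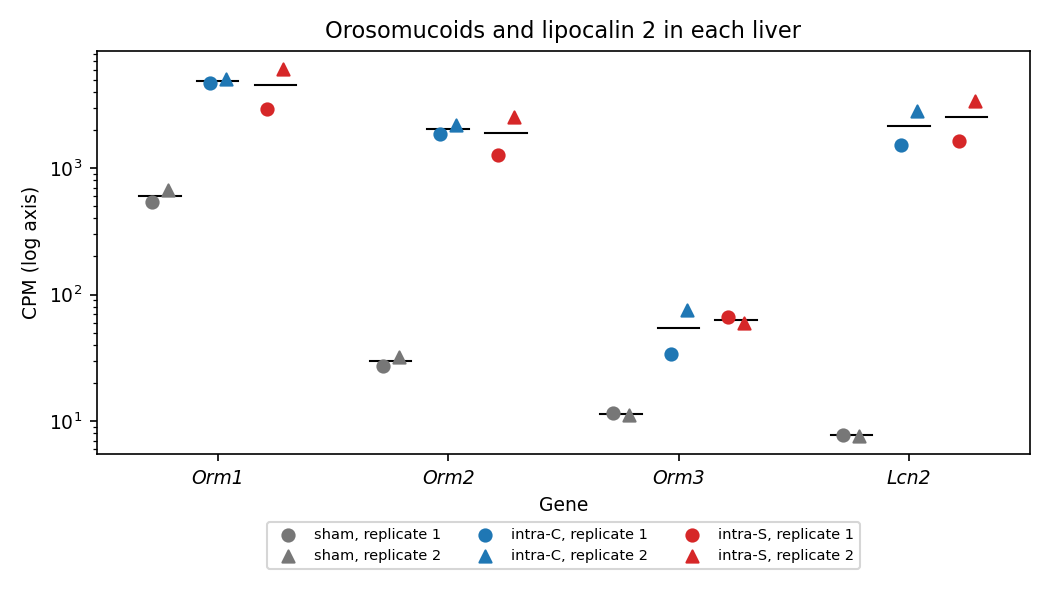
CPM of Orm1, Orm2, Orm3 and Lcn2 on a log axis in each of the 6 livers, with circles for replicate 1, triangles for replicate 2 and a line at the mean of each group (n = 2). For each gene the sham livers lie below the livers of both tumor groups, and Lcn2 goes from 7.76 and 7.65 CPM in sham to between 1508 and 3401 CPM in the others.

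All 4 genes were therefore called higher in both comparisons with sham. Over all genes tested, 4.92% were called higher and 2.38% lower in intra-C, and 6.78% higher and 3.95% lower in intra-S. The same sham livers serve in both, so the comparisons are not independent of each other. The share of all genes whose livers lay wholly apart from sham was not counted. With 2 livers against 2, an exact two-sided permutation test cannot go below p = 0.333, so a lack of overlap is given as a description. By size of the log2 fold change, Lcn2 ranked 32 of 16370 genes in intra-C and 48 in intra-S. Orm2 ranked 124 and 166. Orm1 ranked 497 and 750, and Orm3 ranked 881 and 1012, among all genes.

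The calls rested on both sham livers. With either sham liver left out, so that the other was assumed to vary like the remaining groups, the log2 fold changes stayed between 2.86 and 3.18 for Orm1, 2.23 and 2.31 for Orm3 and 8.12 and 8.15 for Lcn2 in intra-C, and Orm2 was at 6.21 without sham liver 2. However, none of the 4 genes was then called (edgeR adjusted p between 0.0958 and 0.224), and neither was any other gene. In intra-S the adjusted p under the same omissions lay between 0.0698 and 0.150. Without intra-C liver 1 or 2, Orm1 was not called in intra-C against sham (adjusted p = 0.0866 and 0.0859), and without intra-C liver 2 Orm3 was at a log2 fold change of 1.61 with an adjusted p of 0.0769.

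Between the tumor groups, no difference was detected in any of the 4 genes, and the livers of both groups overlapped. The log2 difference of intra-S from intra-C was -0.11 for Orm1 (95% interval -0.98 to 0.76, edgeR adjusted p = 0.907) and -0.11 for Orm2 (-0.94 to 0.73, edgeR adjusted p = 0.908). For Orm3 it was 0.20 (-0.66 to 1.07, edgeR adjusted p = 0.823) and for Lcn2 0.22 (-0.82 to 1.25, edgeR adjusted p = 0.844). These intervals leave room for differences of about the size seen between livers of 1 group: within intra-S, liver 2 was above liver 1 by 2.06-fold for Orm1, 1.99-fold for Orm2 and 2.09-fold for Lcn2. edgeR called 0 of the 16370 genes in this comparison, where an unadjusted p under 0.05 held for 1144 higher and 1049 lower genes, whereas DESeq2 called 240 higher and 287 lower. The sign of the small differences turned with single livers. Without intra-S liver 1, Orm1 and Orm2 were higher in intra-S by 0.32 and 0.31 on the log2 scale, and without intra-S liver 2 they were at -0.73 and -0.69 with adjusted p-values of 0.0340 and 0.0410.

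**Figure D2:**
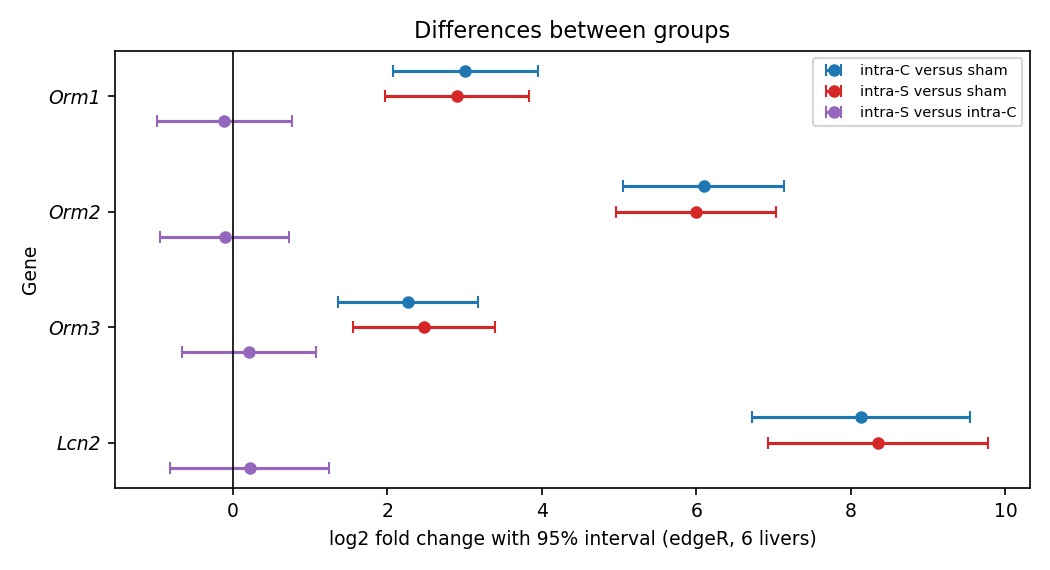
log2 fold changes of the 4 genes in the 3 comparisons, as points with 95% intervals from the edgeR fit over 6 livers. The intervals against sham lie above 0 for every gene, whereas all 4 intervals of intra-S against intra-C include 0.

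The make-up of the orosomucoid transcripts changed in the same way in all livers given tumor cells. By TPM, Orm1 outnumbered Orm2 by 19.4-fold and 20.8-fold in the sham livers, by 2.48-fold and 2.28-fold in the intra-C livers and by 2.31-fold and 2.39-fold in the intra-S livers. Whereas the CPM of Orm1 and Orm2 varied up to 2.06-fold between livers of 1 group, the ratio stayed within a narrow range in the 4 livers given tumor cells. Orm2 accounted for 4.87% and 4.56% of the summed orosomucoid TPM in the sham livers, 28.7% and 30.4% in intra-C and 30.0% and 29.4% in intra-S. The log2 ratio of Orm2 to Orm1 was higher than in sham by 3.08 in intra-C and by 3.10 in intra-S, against SDs of 0.03 to 0.08 between the 2 livers of a group. With 2 livers against 2, an exact two-sided permutation test of such a ratio cannot go below p = 0.333, so the change is given as a value.

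Orm3 did not keep a fixed ratio to Orm1. The TPM of Orm1 was 135-fold and 177-fold that of Orm3 in the sham livers, 400-fold and 197-fold in the intra-C livers and 129-fold and 299-fold in the intra-S livers. Both intra-C livers lay above both sham livers in this ratio, whereas the intra-S livers overlapped with each of the other groups. The size of this ratio depends on the length used for Orm3. The length implied by its counts and TPM was 2.93 times that of Orm1, although the GENCODE transcripts of 773 and 775 bases are of nearly equal length. On CPM, which takes no length into account, the mean ratio of Orm1 to Orm3 was 53.2 in sham, 102 in intra-C and 73.0 in intra-S, compared with 156, 298 and 214 on TPM.

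The level of Lcn2 came close to that of the orosomucoids. Orm1 was 75.6-fold and 95.9-fold above Lcn2 by TPM in the sham livers, but 3.38-fold and 1.97-fold in the intra-C livers and 1.98-fold and 1.95-fold in the intra-S livers. Orm2 was 3.90-fold and 4.61-fold above Lcn2 in the sham livers, and its ratio to Lcn2 was 1.36 and 0.861 in intra-C and 0.855 and 0.816 in intra-S. Lcn2 thus exceeded Orm2 per length in 3 of the 4 livers given tumor cells, the exception being intra-C liver 1. The order of mean TPM was Orm1, Orm2, Lcn2 and Orm3 in sham, where the place of Lcn2 above Orm3 rests on the gene length behind the Orm3 TPM: by CPM, which takes no length into account, Orm3 had 11.4 and Lcn2 7.71. In both tumor groups Orm1 was still highest and Orm3 lowest. Orm2 and Lcn2 had means of 5205 ± 847 and 5059 ± 2379 TPM in intra-C and 4522 ± 2315 and 5463 ± 2953 TPM in intra-S (SD, n = 2). Within livers, their ratio lay on both sides of 1 in intra-C and below 1 in both intra-S livers, and this was not tested.

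**Figure D3:**
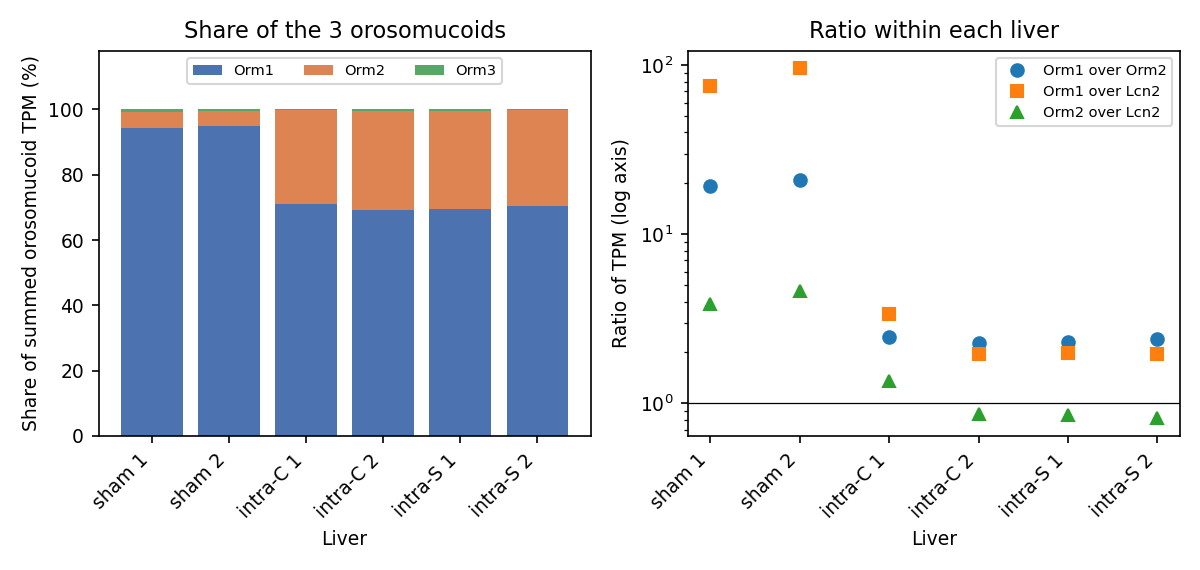
Left, share of Orm1, Orm2 and Orm3 in their summed TPM (%) in each liver. Right, ratios of TPM within each liver on a log axis, with a line at 1. The share of Orm2 is 4.87% and 4.56% in the sham livers and between 28.7% and 30.4% in the other 4, and the ratios of Orm1 to Orm2 and of Orm1 and Orm2 to Lcn2 all fall.

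The transcripts of the orosomucoid genes resemble each other. Since only uniquely aligned reads were counted, reads that fit more than 1 of these genes would have been left out. Orm1 and Orm3 transcripts were 86.1% identical, Orm2 and Orm3 88.0%, and Orm1 and Lcn2 47.2%. Of all stretches of 50 bases, 79.6% of those in Orm1, 77.3% in Orm2, 96.4% in Orm3 and 100% in Lcn2 occurred in no other gene's transcript, and of 100 bases 93.0%, 93.0%, 100% and 100%. All stretches of 150 bases were found in 1 gene. The read length is not given in the sources used here, so the share of reads that could not be placed on 1 orosomucoid gene was not worked out. Gm11212, which shares 50-base stretches with Orm2, had 0 and 2 counts in the sham livers, 14 and 4 in intra-C and 9 and 52 in intra-S, compared with 1114 to 102601 counts for Orm2 over the 6 livers.

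Changes of the genes next to the cluster were not tested against those of the orosomucoids. Col27a1, which ends before Orm1, was at -0.74 in intra-C and -1.09 in intra-S on the log2 scale against sham. Akna begins 1246 bp after Orm2 and was at 1.63 and 1.65 (standard error 0.49 in both), beside 2.27 and 2.47 for Orm3 (standard error 0.38 in both). Whrn behind Akna was at -0.34 and -0.14. Col27a1, Akna and Whrn did not pass the test (edgeR adjusted p between 0.0791 and 0.944). Ambp, which encodes the lipocalin alpha-1-microglobulin and lies 190384 bp before Orm1, rose by 1.04 in intra-C (edgeR adjusted p = 0.0406) and was at 0.86 in intra-S (adjusted p = 0.0522). On either side of Lcn2, Ciz1, 1110008P14Rik and Ptges2 lay between -0.29 and 0.18, whereas Slc25a25, a mitochondrial carrier, was at 2.52 and 2.30 without passing the test (adjusted p = 0.0688 and 0.0702).

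Among the cytokines that induce acute phase genes, 9 of 11 were in the table and 6 passed the filter, 2 of which were called higher in each comparison with sham. Il1a rose from 1.26 and 1.02 CPM in sham to 7.84 and 5.94 CPM in intra-C and 14.4 and 9.40 CPM in intra-S (edgeR adjusted p = 0.0147 and 0.00663). Il1b rose from 0.320 and 0.860 CPM to 11.9 and 4.45 CPM in intra-C and 8.31 and 4.93 CPM in intra-S (adjusted p = 0.0316 and 0.0303). Both encode forms of interleukin-1. Il6, the main inducer of the response in hepatocytes, had 2 and 0 counts in the sham livers, 10 and 2 in intra-C and 48 and 21 in intra-S, and was not called (edgeR adjusted p = 0.288 and 0.0601). Osm, which encodes oncostatin M, had 2 and 2 counts in sham, 24 and 4 in intra-C and 77 and 7 in intra-S (adjusted p = 0.272 and 0.102). These low counts limit what can be detected for both cytokines at this depth. Without intra-C liver 1 or 2, 0 cytokines were called in intra-C and 1 in intra-S, and without intra-S liver 2, 5 were called in intra-S.

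Of 13 receptor genes, 6 were higher and 1 lower in intra-C, and 5 were higher and 2 lower in intra-S. Osmr, the oncostatin M receptor, was at 2.24 and 1.70 CPM in sham, 18.6 and 18.6 CPM in intra-C and 8.05 and 17.1 CPM in intra-S, with log2 fold changes of 3.24 and 2.68 (edgeR adjusted p = 0.0130 and 0.0154). Il1r2, a decoy receptor for interleukin-1, rose by 3.70 and 4.22 on the log2 scale (adjusted p = 0.0177 and 0.0109). Both were called in each comparison, as were Tnfrsf1a and Il17ra. Il6st, the signal-transducing chain gp130, was at 43.4 and 38.2 CPM in sham, 181 and 203 CPM in intra-C and 59.6 and 96.6 CPM in intra-S, and rose in intra-C (2.24, adjusted p = 0.0130) without being called in intra-S (0.94, adjusted p = 0.0778). The direct comparison of intra-S with intra-C gave -1.30 for it (adjusted p = 0.285). Il1r1, the signalling receptor of interleukin-1, rose in intra-C (2.39, adjusted p = 0.0236) and was at 1.00 in intra-S (adjusted p = 0.136). Lifr, the receptor of leukemia inhibitory factor, fell by 1.04 in intra-C and fell by 1.78 in intra-S (adjusted p = 0.0457 and 0.0110), and Il1rap, the accessory chain of the interleukin-1 receptor, fell by 1.13 in intra-S (adjusted p = 0.0208). Il6ra, which binds interleukin-6, was not called (0.95 and 0.61, adjusted p = 0.262 and 0.437). Without intra-C liver 1 or 2, 0 receptors were called higher in intra-C and 1 in intra-S, and without intra-S liver 2, 9 were called higher in intra-S.

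Of 20 signalling and transcription factor genes, 3 were higher and 1 lower in intra-C, and 5 were higher and 0 lower in intra-S. Stat3, the factor activated by interleukin-6, rose from 67.0 and 62.4 CPM in sham to 229 and 226 CPM in intra-C and 134 and 130 CPM in intra-S, with log2 fold changes of 1.82 and 1.03 (edgeR adjusted p = 0.00785 and 0.0236). Socs3, a feedback inhibitor that STAT3 induces, rose from 1.40 and 2.22 CPM to 36.1 and 24.1 CPM in intra-C and 9.86 and 31.0 CPM in intra-S (adjusted p = 0.0195 and 0.0213). In intra-S, liver 1 was the lower one for Socs3, as it was for Orm1, Orm2 and Lcn2. Of the C/EBP genes, Cebpa, which maintains hepatocyte gene expression, fell by 1.70 in intra-C (adjusted p = 0.0423) and was at -0.66 in intra-S (adjusted p = 0.258). Cebpb was at 0.34 and 0.91 (adjusted p = 0.682 and 0.238), and Cebpd rose by 2.76 in intra-S (adjusted p = 0.0421) and was at 1.75 in intra-C (adjusted p = 0.131). Cebpe, a factor of granulocyte precursors, had 0 counts in both sham livers, 31 and 84 counts in intra-C and 86 and 30 counts in intra-S, and was called in both (adjusted p = 0.0390 and 0.0326). Nfkb1, Nfkb2, Rela, Relb, Nfkbia and Nfkbiz, genes of the NF-kB pathway, were not called in either comparison. Nr3c1, the glucocorticoid receptor, was at 0.07 and 0.67 (adjusted p = 0.936 and 0.359). Of its known targets, Tsc22d3 was at 0.12 and -0.45 (adjusted p = 0.892 and 0.540) and Fkbp5 at 1.68 and 1.94 (adjusted p = 0.0771 and 0.0466). Without intra-C liver 1 or 2, 0 factors were called higher in either comparison. With either intra-S liver left out, 7 were called higher in intra-C, and without intra-S liver 2, 8 in intra-S.

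**Figure D4:**
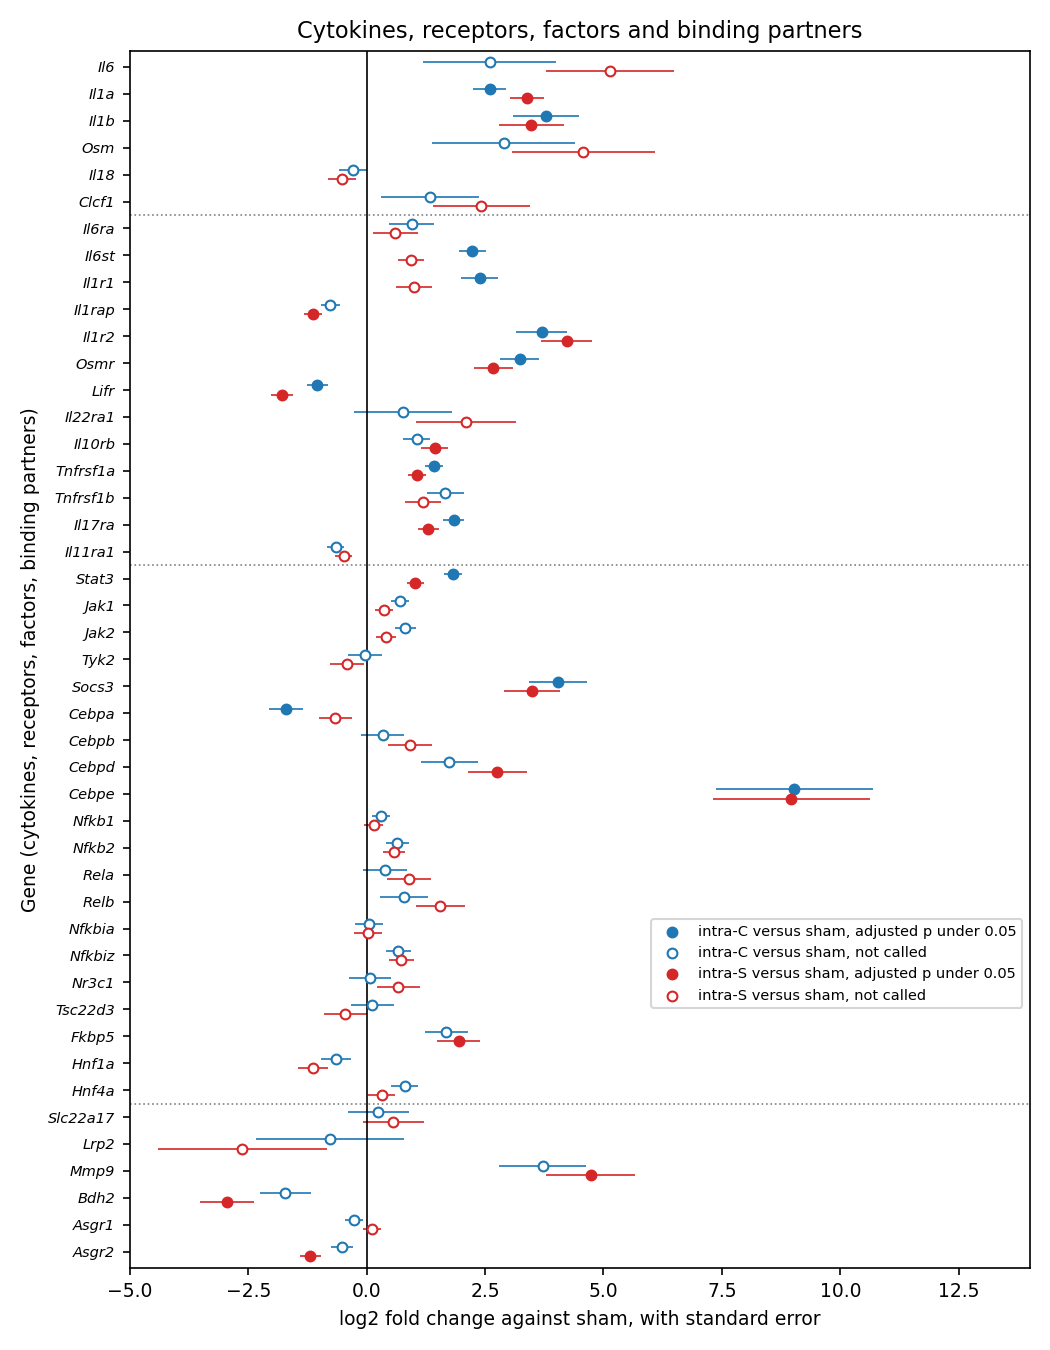
log2 fold changes against sham with standard errors for the tested genes of 4 lists, separated by dotted lines (cytokines, receptors, signalling and transcription factors, binding partners with Bdh2). Filled points were called at an adjusted p under 0.05 and open points were not. Il1a, Il1b, Il1r2, Osmr, Stat3 and Socs3 are filled on the right in both comparisons, and the value of Cebpe depends on the fit because it had 0 counts in both sham livers.

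Among the tested genes of binding partners, receptors and siderophore synthesis, 0 of 6 were called in intra-C and 3 in intra-S. Mmp9, which encodes a gelatinase listed as a partner of Lcn2, rose by 4.73 on the log2 scale in intra-S (edgeR adjusted p = 0.0307). It was at 3.71 in intra-C (adjusted p = 0.0626), with at most 8.89 CPM in any liver. Binding of the mouse proteins to each other was not examined here. Bdh2, an enzyme of mammalian siderophore synthesis, fell by 2.95 in intra-S (adjusted p = 0.0286) and was at -1.71 in intra-C (adjusted p = 0.105). Asgr2, a chain of the receptor by which hepatocytes take up desialylated glycoproteins such as orosomucoid, fell by 1.19 in intra-S (adjusted p = 0.0283), while Asgr1, the other chain, was at -0.27 and 0.11 (adjusted p = 0.412 and 0.730). The cell-surface receptors of Lcn2, Slc22a17 and Lrp2, were at or below 1.20 CPM in every liver and were not called.

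Of the other members of the lipocalin family, more were called lower than higher. Of 22 listed, 12 were in the table and 9 passed the filter. Of these 9, Ambp alone was called higher in intra-C, and 3 were lower there. In intra-S 0 were higher and 4 lower. C8g, the gamma chain of complement component 8, was at 299 and 296 CPM in sham, 64.4 and 87.6 CPM in intra-C and 67.2 and 65.0 CPM in intra-S (log2 fold change -1.97 and -2.17, edgeR adjusted p = 0.0102 and 0.00670). Mup3, a major urinary protein, was at -3.51 and -4.43 (adjusted p = 0.0148 and 0.00733). It belongs to a family of near-identical genes, and reads that fit several of them would not have been counted. Ptgds, prostaglandin D2 synthase, was at -2.55 and -4.08, from at most 3.67 CPM (adjusted p = 0.0479 and 0.0156). Apom, an apolipoprotein of high-density lipoprotein, had 71.7 and 79.6 CPM in sham, 267 and 172 CPM in intra-C and 138 and 264 CPM in intra-S. Its groups did not overlap with sham, but it was not called (1.54 and 1.41, adjusted p = 0.0588 and 0.0597). Rbp4, which carries retinol, was not called either (-0.62 and 0.06, adjusted p = 0.169 and 0.886). The median log2 fold change of the 9 genes was -0.99 in intra-C and -2.17 in intra-S, compared with 0.01 and 0.04 over all genes tested.

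Most other acute phase genes rose. Of 31 tested, 26 were higher and 0 lower in intra-C, and 24 were higher and 1 lower in intra-S, with median log2 fold changes of 2.92 and 2.61. The gene called lower in intra-S was Hamp, which encodes the iron regulator hepcidin. It was at 537 and 536 CPM in sham, 65.3 and 464 CPM in intra-C and 0.437 and 0.981 CPM in intra-S (edgeR adjusted p = 0.463 and 0.00965). A2m, which encodes the protease inhibitor alpha-2-macroglobulin, had 3 and 0 counts in sham and 117 and 103 CPM in intra-C and 108 and 229 CPM in intra-S, and was called in both (adjusted p = 0.00543 and 0.00443). Its fitted change was larger than that of Lcn2 and depends on the fit, since its sham counts were so low. Saa1 and Saa2, which encode the apolipoproteins of the acute phase serum amyloid A, rose by 7.99 and 8.74 in intra-C (adjusted p = 0.0283 and 0.0424) and by 6.50 and 7.11 in intra-S (adjusted p = 0.0313 and 0.0488). Saa3, a further serum amyloid A gene, rose by 5.99 and 5.55 (adjusted p = 0.0235 and 0.0216). Orm1 at 3.01 and 2.90 and Orm3 at 2.27 and 2.47 lay near the median of these genes. Orm2 at 6.10 and 5.99 and Lcn2 at 8.13 and 8.35 lay above it. So did A2m, Saa1, Saa2 and Saa3 and, by less, further genes of the list such as Cd14 (4.21 and 4.34) and Lrg1 (3.82 and 3.35). Saa1 differed 10.6-fold between the intra-S livers (613 and 6515 CPM), compared with 2.06-fold for Orm1, 1.99-fold for Orm2 and 2.09-fold for Lcn2, although liver 1 was the lower one for each of them. Without intra-C liver 1 or 2, 8 and 9 of the acute phase genes were called higher in intra-C.

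Since Lcn2 is also a gene of neutrophil precursors, markers of neutrophils were set beside it. Of 10 secondary granule genes, 8 were higher in intra-C and 9 in intra-S, and of 5 primary granule genes 5 were higher in both. The summed level of the secondary granule genes was 1.16 and 1.20 CPM in sham, with 3 and 5 of the 10 at 0, compared with 89.7 and 249 CPM in intra-C and 422 and 124 CPM in intra-S. The primary granule genes summed to 0.197 and 0.181 CPM in sham, with 4 of 5 at 0, and to between 50.6 and 112 CPM in the other livers. The mature neutrophil genes, of which 7 and 8 of 9 were higher, summed to 3.97 and 4.66 CPM in sham, 208 and 402 CPM in intra-C and 771 and 315 CPM in intra-S. Lcn2 therefore rose together with neutrophil genes, and the part of these cells in its level was not tested.

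Per length, Lcn2 was above the summed secondary granule genes in every liver. Its order over the intra-S livers was opposite to that of the secondary granule and mature neutrophil genes. The summed primary granule genes had the same order as Lcn2 (50.6 and 85.0 CPM), mostly through Prtn3 (17.1 and 48.8 CPM). Mpo (19.3 and 21.7 CPM), Ctsg (4.02 and 5.40 CPM) and Ms4a3 (2.22 and 2.33 CPM) differed less. Elane had the opposite order (7.90 and 6.75 CPM). Lcn2 reached 3376 and 6741 TPM in intra-C and 3375 and 7551 TPM in intra-S. All 10 secondary granule genes together reached 129 and 375 TPM in intra-C and 582 and 182 TPM in intra-S. The ratio of Lcn2 to this sum was 20.0 and 17.1 in the sham livers, 26.1 and 18.0 in intra-C and 5.80 and 41.5 in intra-S. In sham, Itgb2l made up most of the sum by CPM (0.764 and 0.702 of 1.16 and 1.20), and it was not called in either comparison. The ratio to the sum therefore rests largely on Itgb2l in sham. The ratio of Lcn2 to Ngp, which had 2 and 8 counts in sham, was 214 and 57.5 there, 48.7 and 33.1 in intra-C and 11.6 and 92.7 in intra-S. From liver 1 to liver 2 of intra-S, Lcn2 was 2.09-fold higher, whereas Ngp, encoding the neutrophilic granule protein, was 3.84-fold higher in liver 1. Camp, which encodes cathelicidin, and Ltf, which encodes lactoferrin, were 2.86-fold and 2.25-fold higher in liver 1, and S100a8, a calgranulin of mature neutrophils, 2.25-fold. In intra-C, liver 2 was higher for Lcn2 (1.87-fold) and for Ngp, Camp, Ltf and S100a8 (2.75-fold, 2.66-fold, 3.78-fold and 1.92-fold) as well. Mpo, a primary granule gene, had 0 counts in both sham livers and lay at 14.5 and 36.0 CPM in intra-C and 19.3 and 21.7 CPM in intra-S.

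**Figure D5:**
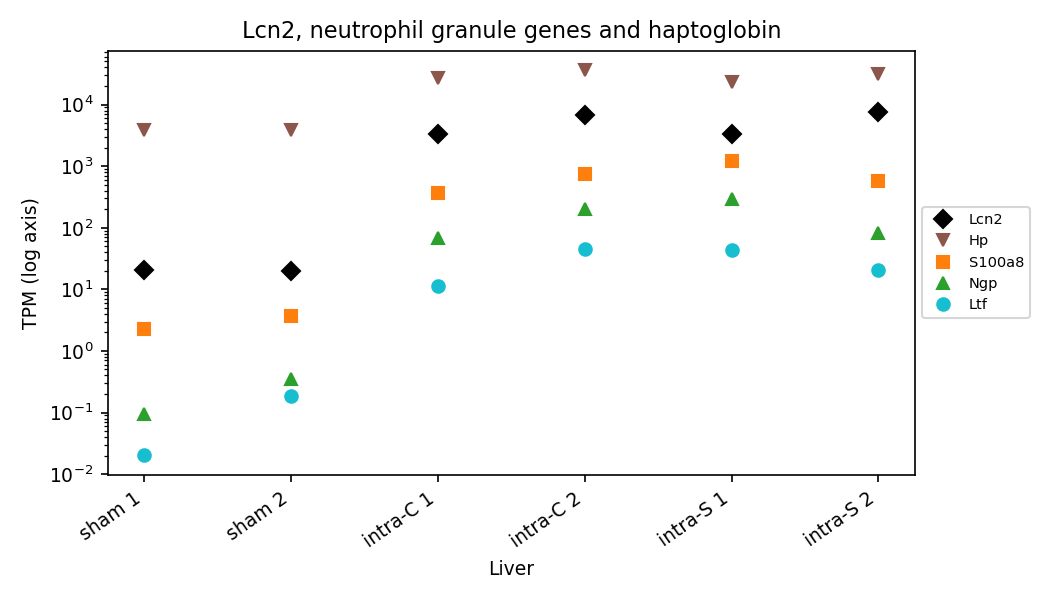
TPM on a log axis in each liver for Lcn2, the neutrophil genes S100a8, Ngp and Ltf and the hepatocyte acute phase gene Hp (haptoglobin). In intra-S, liver 1 has less Lcn2 (3375 TPM) than liver 2 (7551 TPM) but more S100a8, Ngp and Ltf.

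Markers of other liver cells moved less uniformly. Hepatocyte genes were abundant in all 6 livers as the label liver asks, with 84369 to 156594 CPM of Alb, which encodes albumin. Of 9 hepatocyte genes tested, Apob was called higher in intra-C and Cyp2e1 lower in intra-S and no other was called, with median log2 fold changes of 0.21 and 0.13. By TPM, Alb exceeded Orm1 by 66.5-fold and 49.3-fold in the sham livers, 9.79-fold and 6.30-fold in intra-C and 20.1-fold and 6.77-fold in intra-S. Macrophage and monocyte genes were higher for 8 of 10 in intra-C and 7 of 10 in intra-S, and summed to 194 and 196 CPM in sham, 920 and 1196 CPM in intra-C and 606 and 1135 CPM in intra-S. Their lower sum in intra-S liver 1 went with lower Orm1 and Orm2 there, and the part of these cells was not tested. The 6 bile duct genes summed to at most 5.15 CPM in any liver. Of 5 tested, 0 were called in intra-C, and Sox9 alone was called higher in intra-S (log2 fold change 2.12, edgeR adjusted p = 0.0491).

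The genes closest in pattern to each of the 4 were sought among 9282 tested genes with a mean of at least 5 CPM. Likeness was the root mean square difference between log2 CPM profiles over the 6 livers, after the sham mean of each gene was subtracted. For Orm1 these were Wfdc17 (0.0972), Plek (0.192), Marchf1 (0.207), Apcs (0.213) and Ctss (0.228). Apcs, which encodes serum amyloid P, was the abundant one, with 319 and 447 CPM in sham, 4064 and 3567 CPM in intra-C and 1975 and 3955 CPM in intra-S. For Orm2 no gene came as close, the nearest being Cyb561 (0.666), Serpina1d (0.684), Igdcc4 (0.694), Slc41a2 (0.731) and Saa3 (0.746). For Orm3 they were Igsf6 (0.205), Sh3kbp1 (0.247), Spi1 (0.248), AI662270 (0.259) and Lcp2 (0.263). For Lcn2 they were Mpo (0.555), S100a8 (0.738), Elane (0.823), Camp (0.829) and Prtn3 (0.855). Mpo, Elane and Camp had 0 counts in both sham livers, so that their distance from Lcn2 depends on the prior count of 2 used for the logarithm. All 5 had at most 0.634 CPM in sham. Of the neighbours of all 4 genes, Apcs, Ctss and Serpina1d alone had a mean of at least 5 CPM in sham, and the others reached it only through the livers given tumor cells. Since the sham mean was subtracted, genes of unlike fold change are distant by construction, and the lists are given as a description.

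The 6 libraries held 32838321 to 43368309 counts, and where a gene had 0 counts, the 3 counts that this still allows would amount to no more than 0.0679 to 0.0928 CPM, depending on the liver. The 100 most abundant genes made up 44.2% and 44.9% of all counts in sham and 54.9% to 59.7% elsewhere. No pair of libraries in a group looked like 1 library deposited 2 times (chi-square over its degrees of freedom of 24.8 in sham, 73.1 in intra-C and 337 in intra-S, where livers of separate mice always exceed counting noise). A gap of more than 4-fold between both livers of a group was seen in 0.262% (sham), 0.537% (intra-C) and 3.93% (intra-S) of the 7261 genes with a mean of at least 10 CPM. No batch, date or sex is given in the labels, and the route by which CT26 cells were given cannot be told apart from the group.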

How the data were processed

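The authors aligned reads to mm10 with HISAT2 2.1.0 and counted uniquely aligned reads on exons with featureCounts (Subread 2.0.6). They deposited the raw count of each gene and TPM values, calculated from counts and gene lengths. The annotation, strand setting and read length are not given in the sources used here.

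Everything else was computed with R 4.3.3 and Python 3.11.15. The counts were tested with edgeR 4.0.16's quasi-likelihood test (TMM normalization, filterByExpr with a count minimum of 10, 1 fit over 6 livers, Benjamini-Hochberg adjustment over 16370 genes), checked on simulated data. Standard errors were derived from the F statistic. Symbols were matched to RefSeq for 20136 of 20140 genes. The members and gene lists were chosen with earlier results of these data known. From each list the text names at most 4 called genes in either direction, by the size of their change and with a mean of at least 1 CPM, with further pathway genes by role, the 2 nearest tested genes on each side and the 5 genes nearest in pattern. Not every gene this covers is named. Hp, Ltf, Alb, Apom, Rbp4 and Gm11212 were chosen after their values were seen. Alternatives were DESeq2 1.42.0, limma 3.58.1 on log2(TPM + 1) and log2(TPM + 0.1), other filters and scalings, the 2 groups compared alone, a replicate block and each liver left out.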

Additional observations from a re-analysis of the deposited data

How the results depend on the processing

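The 4 genes kept their direction against sham under every alternative run. Among alternatives that kept all livers of the compared groups, 1 call was lost, Orm1 in intra-S against sham with only those 2 groups fitted (2.91, edgeR adjusted p = 0.0507). The replicate numbers did not pair the livers (correlations of replicate differences between groups of -0.03, 0.08 and 0.04), and with a replicate block all 8 calls of the 4 genes against sham held (log2 fold changes in intra-C of 3.03, 6.10, 2.21 and 8.03 for Orm1, Orm2, Orm3 and Lcn2), with 259 genes called lower in intra-C in place of 389. Under library size without TMM, the median log2 fold change of all genes was -0.25 in intra-C and -0.23 in intra-S, in place of 0.01 and 0.04. With 2 livers per group, p-values and intervals rest on a spread pooled over the 6 livers. The cause of the changes below was not tested.

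Calls over all genes moved with the fit. With only the 2 groups compared, 2548 genes were higher and 2223 lower in intra-C against sham, and 276 and 116 in intra-S, where 1 cytokine, 1 receptor, 0 signalling or transcription factors and 14 acute phase genes were then higher, and 7 factors were higher in intra-C. DESeq2 called 1709 higher and 1110 lower in intra-C with 7 factors, 2065 and 1465 in intra-S with 4 cytokines, and 240 and 287 between the tumor groups. By library size without TMM, 801 genes were lower in intra-C and 1115 in intra-S, where 3 receptors and 3 factors were higher. On log2(TPM + 1), limma called 497 higher and 896 lower in intra-C, and 685 and 1553 in intra-S with 3 factors, and on log2(TPM + 0.1) it called 890 and 1476 lower. On CPM in place of TPM, Orm1 exceeded Orm3 by 53.2-fold, 102-fold and 73.0-fold in sham, intra-C and intra-S.

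With each liver left out in turn, the log2 fold change in intra-C against sham ranged from 2.86 to 3.18 for Orm1, 5.996 to 6.21 for Orm2, 1.61 to 2.73 for Orm3 and 7.64 to 8.52 for Lcn2. In intra-S against sham it ranged from 2.29 to 3.33, 5.41 to 6.41, 2.39 to 2.56 and 7.72 to 8.79. Between the tumor groups it ranged from -0.73 to 0.32 for Orm1, -0.69 to 0.31 for Orm2, -0.26 to 0.87 for Orm3 and -0.41 to 0.72 for Lcn2. The difference of Orm2 turned to 0.0038 without intra-C liver 2, that of Orm3 to -0.26 and that of Lcn2 to -0.17 without intra-C liver 1, and that of Lcn2 to -0.41 without intra-S liver 2. Genes called higher and lower ranged from 0 to 2546 and 0 to 2112 in intra-C, 0 to 3010 and 0 to 2683 in intra-S, and 0 to 1312 and 0 to 1572 between the tumor groups, with 0 against sham when a sham liver was left out. Higher members ranged in intra-C from 0 to 2 for cytokines, 0 to 9 for receptors, 0 to 7 for factors and 0 to 30 for acute phase genes, and in intra-S from 0 to 5, 0 to 9, 0 to 8 and 0 to 29.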
